A study of Mus musculus with 6 samples.

Results

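The genes described here are 9 mouse genes of MHC class I antigen presentation, H2-K1, H2-D1, H2-T23, B2m, Tap1, Tap2, Tapbp, Erap1 and Nlrc5. They were taken by gene name from a table of read counts for 54532 genes, and each name matched 1 row. The samples were AE9a leukemia cells of the C57BL/6 strain, a transplantable model of acute myeloid leukemia. In this model a retrovirus carries the AML1-ETO9a fusion, with GFP, into c-Kit+ progenitors, and the leukemia is passed on through irradiated mice. Cells of central bone marrow (CBM) were flushed from the femurs and tibias, and cells of endosteal bone marrow (EBM) were then released from the flushed bones with collagenase. The labels give 3 libraries per region, and the study's methods place the cells in the third generation of transplanted mice. The labels mention cell sorting, and the gate used for these libraries is not given in the sources used here. All 6 libraries carry the AE9a transgene, and no library comes from normal marrow. The collagenase step was used for EBM alone, so the effect of the region and that of the digestion cannot be told apart. Neither the labels nor the study's methods say that the libraries came from separate mice, so the p-values measure only the spread between these libraries, which may be technical. In bulk samples such as these, fewer cells of a type and less RNA per cell cannot be told apart.

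MHC class I molecules sit on nearly all nucleated cells and show short peptides from inside the cell to CD8+ T cells. Each molecule is a heavy chain paired with the light chain beta-2-microglobulin, and it is loaded in the endoplasmic reticulum with peptides that were cut by the proteasome, pumped in by the TAP transporter and trimmed by aminopeptidases. NK cells sense the loss of class I. Transcription of the class I heavy chain genes and B2m is known to rest on 2 parts. These are an upstream enhancer bound by NF-kB and interferon regulatory factors, and the SXY module, at which NLRC5 acts.

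Promoter sequence from RefSeq (GRCm38.p6) was available for 7 of the 9 genes, in 8 windows, and 4 windows are shown because they belong to the heavy and light chains on which the results turn. Each run is the 250 bases before the start site, written 5′ to 3′ on the gene's own strand. Capitals mark every match, on either strand, to any of the following letters. They are GAAANNGAA (an interferon response element core), GAANNGAAA (its other spelling), GGGATTCCC (an NF-kB site) and GGGANNTCC (another NF-kB spelling). Also marked are TTCNNNGAA (a STAT site), TGACG (the core of a cyclic AMP response element) and CCAAT (the NF-Y box).
H2-K1, chr17:34000334-34000583, minus strand: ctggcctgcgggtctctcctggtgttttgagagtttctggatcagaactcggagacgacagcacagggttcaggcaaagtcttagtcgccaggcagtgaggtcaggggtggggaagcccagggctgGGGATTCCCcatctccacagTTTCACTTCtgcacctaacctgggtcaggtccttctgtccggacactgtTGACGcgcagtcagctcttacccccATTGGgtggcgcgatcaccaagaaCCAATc
H2-D1, chr17:35262844-35263093, plus strand: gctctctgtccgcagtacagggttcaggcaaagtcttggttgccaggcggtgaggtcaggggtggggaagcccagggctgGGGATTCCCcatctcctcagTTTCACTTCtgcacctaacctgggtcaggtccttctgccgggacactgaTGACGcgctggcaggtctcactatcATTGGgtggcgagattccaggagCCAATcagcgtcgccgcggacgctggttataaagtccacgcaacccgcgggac
B2m, chr2:122147437-122147686, plus strand: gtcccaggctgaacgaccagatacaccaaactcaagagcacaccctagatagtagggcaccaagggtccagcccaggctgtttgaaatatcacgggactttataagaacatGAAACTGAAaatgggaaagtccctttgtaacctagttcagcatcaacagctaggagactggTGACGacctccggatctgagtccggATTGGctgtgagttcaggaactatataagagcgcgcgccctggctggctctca
H2-T23, chr17:36032702-36032951, minus strand: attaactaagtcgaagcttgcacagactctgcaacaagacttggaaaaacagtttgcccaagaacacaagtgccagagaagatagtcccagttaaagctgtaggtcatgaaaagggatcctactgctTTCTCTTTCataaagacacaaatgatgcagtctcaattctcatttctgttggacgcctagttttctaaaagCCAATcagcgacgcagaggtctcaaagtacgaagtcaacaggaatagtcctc

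The H2-K1 window is the one of its 2 RefSeq starts that abuts the gene model of the count table, and the H2-D1 window lies wholly inside that gene's model, whose start in the table is further upstream. The windows of H2-K1 and H2-D1 held the same letters in the same order, with GGGATTCCC first, then GAANNGAAA read from the opposite strand as TTTCACTTC, then TGACG and 2 CCAAT boxes. Counted back from the start site, GGGATTCCC began at position -124 in H2-K1 and at position -170 in H2-D1. These positions depend on the start site used, and from the other H2-K1 start GGGATTCCC began at position -110. GAANNGAAA began at -104 in H2-K1 and -150 in H2-D1, and TGACG at -55 and -101. The spacing between these matches was thus the same in H2-K1 and H2-D1. A local alignment of these windows had 172 identical bases in 192 columns, or 89.6%. GGGATTCCC was held by 0.301% of all 32851 promoter windows of this length and GAANNGAAA by 6.31%. These 2 spellings were added after the promoters had been read, since the NF-kB letters GGGANNTCC, held by 3.59% of windows, matched none of the 7 genes. GGGANNTCC has T where GGGATTCCC has C, so neither spelling can match a site of the other. Further NF-kB spellings were not searched. TTCNNNGAA, held by 7.02% of windows, matched none of the 7 genes either. The B2m window held GAAANNGAA at position -139, TGACG at position -78 and CCAAT at position -53, and the H2-T23 window held GAAANNGAA at position -123 and CCAAT at position -52. GAAANNGAA was present in 3 of the 7 genes (B2m, H2-T23 and Erap1, whose window is not shown) against 7.13% of all windows. TGACG was present in 4 of the 7 against 17.8%, and CCAAT in 6 of the 7 against 33.8%. These shares are per window, while the counts are per gene and H2-K1 has 2 windows. Such matches describe the letters and are not evidence that a factor bound there.

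Depth was between 16436526 and 19462964 counts per library, and a floor of 3 counts corresponded to between 0.154 and 0.183 CPM, which is the count scaled to library size. The floor covers counting error only, since PCR copies are not independent molecules, while the 95% intervals of fold changes come from edgeR's fit and carry the spread between libraries. Together the 9 genes made up from 0.173% to 0.273% of a library. On the first principal component of log2 CPM, which carried 53.0% of the variance, CBM replicate 2 (42.9) and EBM replicate 3 (46.0) stood at the far end from the other libraries. Results are therefore given with and without these libraries where they matter. The leukemia markers Kit, Cd34, Mpo, Myb, Runx1 and Ptprc had a summed level of between 882 and 1279 CPM in CBM and between 926 and 1150 CPM in EBM, carried mostly by Runx1, Myb and Kit. Cd34 was at 1.16 to 16.4 CPM over all libraries and Mpo at 1.65 to 35.8 CPM. Ptprc, the leukocyte antigen CD45, was at or near the floor in CBM replicates 1 and 3 (4 and 2 counts) and reached at most 3.58 CPM. Kit, the receptor that marks these cells, was at 220 CPM ± 8.15 (SD, n = 3) in CBM and 220 CPM ± 22.1 (SD, n = 3) in EBM.

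The heavy chain gene H2-K1 had the largest difference between the regions of the 9 genes. With edgeR's quasi-likelihood test and Benjamini-Hochberg adjustment over the 13352 genes tested, 0 genes of the whole table (0%) and so 0 of the 9 passed an adjusted p of 0.05. At an unadjusted p under 0.05, 4.01% of all genes tested were higher in EBM and 3.90% were lower, while among the 9 genes H2-K1, H2-D1 and Tapbp were higher and none was lower. DESeq2, on the same counts, called 1.43% of the 12280 genes to which it gave an adjusted p, and H2-K1 was the 1 gene of the 9 among them. The 9 genes were chosen with earlier results of these data known, and some vary together over the 6 libraries. Counts among them are therefore not counts of unselected or independent genes. The median log2 fold change (EBM over CBM) of the 9 genes was 0.18, and that of all genes tested was 0.0017. The sign was positive in 8 of the 9 genes and negative in Erap1, against 6726 positive and 6626 negative signs over all genes tested, but the signs of Tap1, Tap2 and Nlrc5 turned under some of the 15 other fits. In CPM, all EBM libraries lay above all CBM libraries for 5 of the 9 genes (H2-K1, H2-D1, H2-T23, B2m and Tapbp), against 7.47% of all genes tested, and below them for 1 of the 9 (Erap1), against 7.65%. Both counts were the same without CBM replicate 2 and EBM replicate 3. Fewer libraries make such separation easier, and the share of all genes without these libraries is not given here.

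H2-K1 encodes the classical heavy chain H-2K of this strain and lies at chr17:33996017-34000333 on the minus strand. Its counts were 10705, 10146 and 10119 in the CBM libraries and 15680, 19122 and 17860 in the EBM libraries. After TMM scaling, which corrects library size for a few abundant genes, these were 609, 534 and 502 CPM in CBM and 866, 1064 and 1148 CPM in EBM. The regions did not overlap, and the lowest EBM library was above the highest CBM library. The mean was 548 CPM ± 55.0 (SD, n = 3) in CBM and 1026 CPM ± 145 (SD, n = 3) in EBM, or 1.87-fold higher in EBM. The log2 fold change was 0.90 (SE 0.14, 95% interval 0.57 to 1.23), at rank 30 of all genes by p (unadjusted p = 0.000363, adjusted p = 0.157, edgeR). DESeq2 gave an adjusted p of 1.58e-05, and edgeR without a filter on low counts gave 0.0442, so the call depended on the method. The difference itself was between 0.80 and 1.01 under all 15 other fits, and it was 0.80 without CBM replicate 2 and EBM replicate 3. No 150-base stretch of its annotated transcripts was shared exactly with another gene.

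H2-D1, the other classical heavy chain gene of this strain (H-2D), lies at chr17:35262730-35267499 on the plus strand. Its levels were 522, 514 and 416 CPM in CBM and 586, 652 and 723 CPM in EBM. The regions again did not overlap, with CBM replicate 3 the lowest library and EBM replicate 3 the highest. The mean was 484 CPM ± 59.4 (SD, n = 3) in CBM and 654 CPM ± 68.6 (SD, n = 3) in EBM, a log2 fold change of 0.43 (SE 0.13, 95% interval 0.12 to 0.75). In edgeR's test its unadjusted p = 0.0136 and its adjusted p = 0.459. The difference was between 0.33 and 0.51 under the 15 other fits. Of its 150-base stretches, 1.35% were shared exactly with H2-Q1.

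H2-T23 encodes Qa-1, a nonclassical heavy chain that shows leader peptides of other class I molecules to CD94/NKG2 receptors on NK cells. It lies at chr17:36029773-36032855 on the minus strand. Its levels were 229, 198 and 206 CPM in CBM and 254, 232 and 234 CPM in EBM, which did not overlap by a narrow margin. This separation depended on the scaling, since the regions overlapped when library totals alone were used. On the log2 scale EBM was 0.18 higher (SE 0.096, edgeR's unadjusted p = 0.0986, adjusted p = 0.704). The 95% interval ran from -0.04 to 0.41, which includes 0.

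B2m, the light chain gene at chr2:122147686-122153083, was at 229, 254 and 205 CPM in CBM and at 268, 261 and 373 CPM in EBM. All EBM libraries were above all CBM libraries, but EBM replicates 1 and 2 were close to the highest CBM library and EBM replicate 3 was far above. EBM was 0.39 higher on the log2 scale (SE 0.16, edgeR's unadjusted p = 0.0509, adjusted p = 0.632). Without EBM replicate 3 the log2 fold change was 0.20, and without CBM replicate 2 as well it was 0.28.

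**Figure D1:**
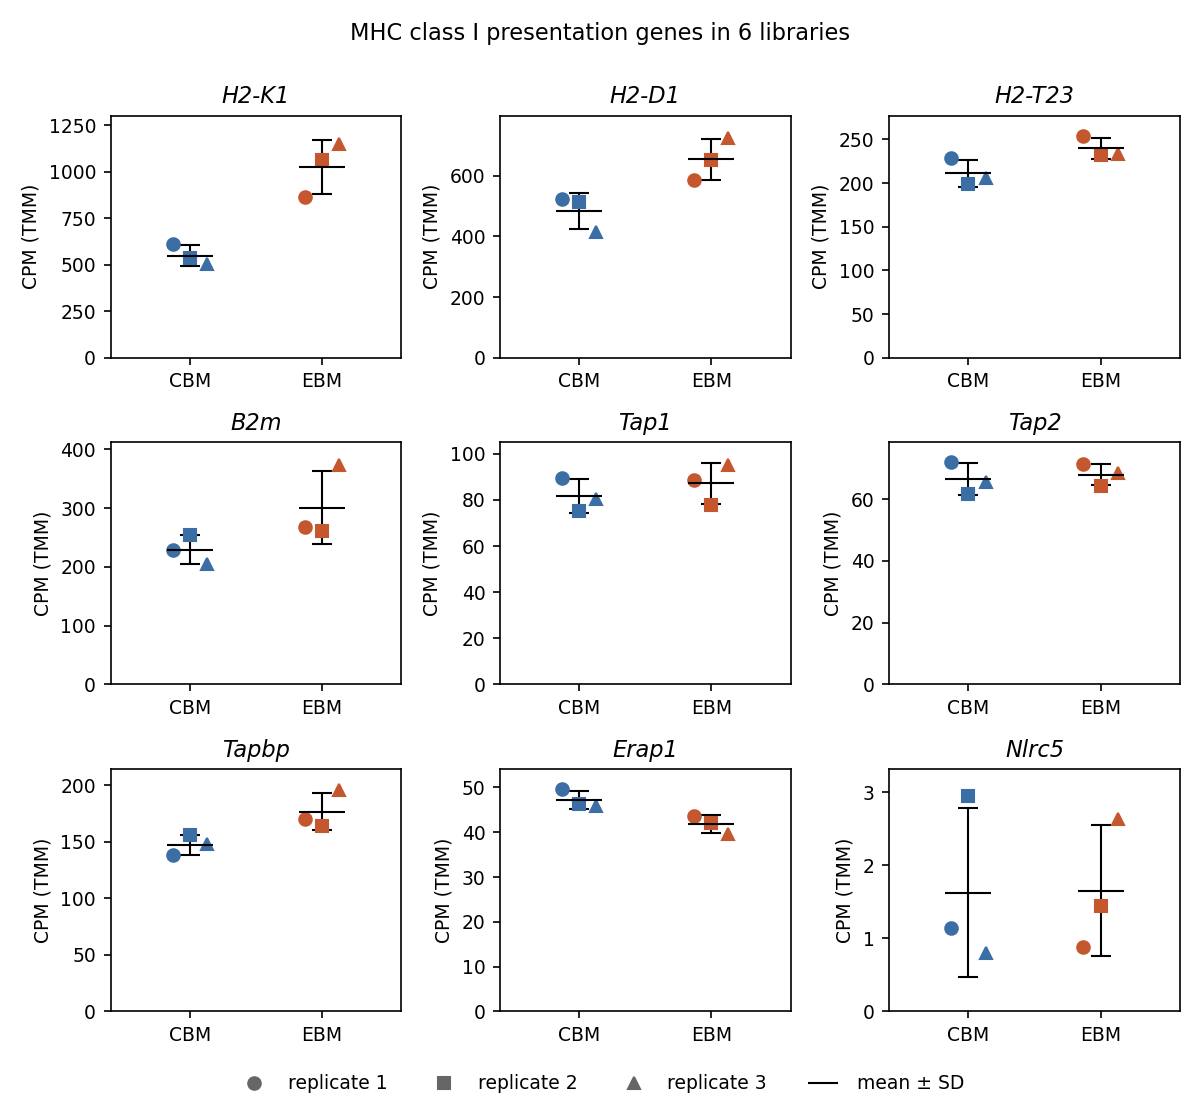
TMM-scaled CPM of each of the 9 genes (vertical axis, from 0) in the 3 CBM and 3 EBM libraries (marker shape gives the replicate), with the mean and SD as black bars. H2-K1 lies at 502 to 609 CPM in CBM and 866 to 1148 CPM in EBM, while the libraries of Tap1, Tap2 and Nlrc5 overlap between the regions.

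The peptide transporter differed little. Tap1, at chr17:34187553-34197225, was at 89.7, 75.2 and 80.4 CPM in CBM and at 88.8, 77.7 and 95.1 CPM in EBM. Tap2, which pairs with it to form the TAP pump and lies at chr17:34203527-34216321, was at 72.0, 61.7 and 65.4 CPM in CBM and at 71.3, 64.3 and 68.3 CPM in EBM. The regions overlapped for both genes. The log2 fold change was 0.09 (SE 0.11, unadjusted p = 0.445) for Tap1 and 0.03 (SE 0.097, unadjusted p = 0.738) for Tap2 in edgeR's test. The 95% interval of Tap2 ran from -0.20 to 0.27, so a rise of the size measured for H2-K1 lay outside it. Both differences turned negative without CBM replicate 2 and EBM replicate 3, at -0.03 for Tap1 and -0.02 for Tap2. On the opposite strand, Psmb9 overlaps 212 exonic bases of Tap1, and Gm20496 and Gm15821 overlap 698 of Tap2. Of their 150-base stretches, 1.04% (Tap1, with Psmb9) and 0.56% (Tap2, with Gm15821) were shared. Whether the counting used the strand is not given in the sources used here.

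Tapbp encodes tapasin, which bridges the TAP pump and the empty class I molecule, and lies at chr17:33915899-33929288. Its levels were 138, 156 and 148 CPM in CBM and 170, 164 and 195 CPM in EBM, with no overlap between the regions. This was a log2 fold change of 0.26 (SE 0.10, edgeR's unadjusted p = 0.0394, adjusted p = 0.596). It was 0.17 without EBM replicate 3, with an unadjusted p of 0.115 in the same test. Its exons overlap those of Zbtb22 on the same strand and Gm19412 on the opposite strand, and 10.08% of its 150-base stretches were shared with Gm19412, so its count is less certain than those of the heavy chains.

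Erap1 encodes the aminopeptidase that trims peptides to the length that class I molecules hold, and lies at chr13:74639568-74693201. It was the 1 gene of the 9 for which all EBM libraries were below all CBM libraries, at 49.6, 46.3 and 45.8 CPM in CBM and 43.6, 42.1 and 39.6 CPM in EBM. Its log2 fold change was -0.18 (SE 0.095, edgeR's unadjusted p = 0.104, adjusted p = 0.713). Of its 150-base stretches, 9.43% were shared with Cast, a gene on the opposite strand, and whether the counting used the strand is not given in the sources used here.

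Nlrc5, the transactivator of class I genes, lies at chr8:94434356-94527272 and was rare. It had 20, 56 and 16 counts in CBM and 16, 26 and 41 counts in EBM. Its highest libraries were CBM replicate 2 and EBM replicate 3, the pair that stood apart. The log2 fold change was 0.02 (SE 0.60, unadjusted p = 0.978 in edgeR's test). The 95% interval ran from -1.42 to 1.45, so a change as large as that of H2-K1, in either direction, lay inside it. This interval carries the spread between the libraries as well as the low counts.

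**Figure D2:**
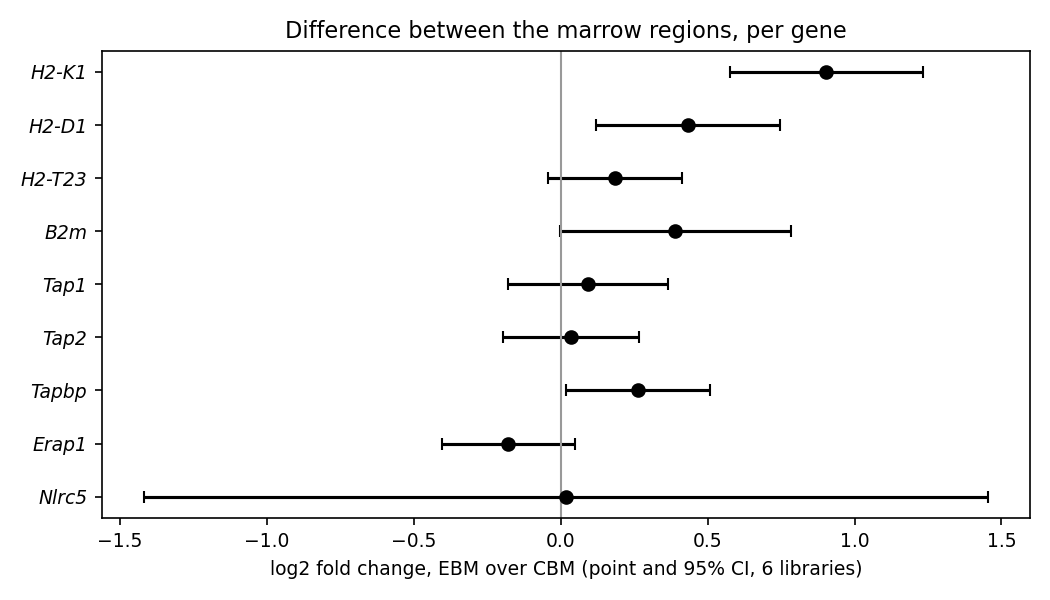
Log2 fold change of each gene between the regions (horizontal axis, EBM over CBM), with the point from edgeR's fit over 6 libraries and the bar its 95% interval. The intervals of H2-K1, H2-D1 and Tapbp do not reach 0, and that of Nlrc5 runs from -1.42 to 1.45.

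Levels between genes were compared in CPM per kilobase of gene length, which the table gives. B2m and H2-K1 were the highest of the 9, with 239 to 295 CPM per kilobase for B2m and 193 to 234 for H2-K1 in CBM, and with 304 to 433 for B2m and 332 to 440 for H2-K1 in EBM. B2m was above H2-K1 without overlap but by a narrow margin in CBM, and the 2 ranges overlapped in EBM. This order rests on the given gene lengths, 860 bases for B2m and 2608 bases for H2-K1, which may differ from those of the transcripts expressed. H2-D1 followed at 161 to 202 CPM per kilobase in CBM, where it overlapped H2-K1, and at 227 to 280 in EBM, where it was below H2-K1 without overlap. The next genes were H2-T23 at 68.7 to 87.8 CPM per kilobase over all libraries and Tapbp at 41.9 to 59.2. Tap2 (16.3 to 19.04) and Tap1 (13.7 to 17.4) overlapped each other, Erap1 was at 5.44 to 6.81, and Nlrc5 was at 0.0935 to 0.347.

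The ratio of 2 genes within a library does not depend on how libraries are scaled. The count ratio of H2-K1 to H2-D1 was 1.17, 1.04 and 1.21 in CBM and 1.48, 1.63 and 1.59 in EBM. All EBM libraries were above all CBM libraries, and the exact two-sided permutation p was 0.1, the smallest that 3 against 3 libraries can give. The ratio of H2-K1 to B2m was 2.66, 2.10 and 2.45 in CBM and 3.23, 4.08 and 3.08 in EBM, again without overlap (exact permutation p = 0.1). The ratio of H2-D1 to B2m overlapped between the regions, at 2.28, 2.03 and 2.03 in CBM and 2.18, 2.495 and 1.94 in EBM (exact permutation p = 0.7). H2-K1 relative to Tap1 was 6.79, 7.10 and 6.25 in CBM and 9.75, 13.7 and 12.1 in EBM (exact permutation p = 0.1). Within a library, H2-K1 was higher relative to the other heavy chain, the light chain and the transporter in each EBM library than in any CBM library.

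**Figure D3:**
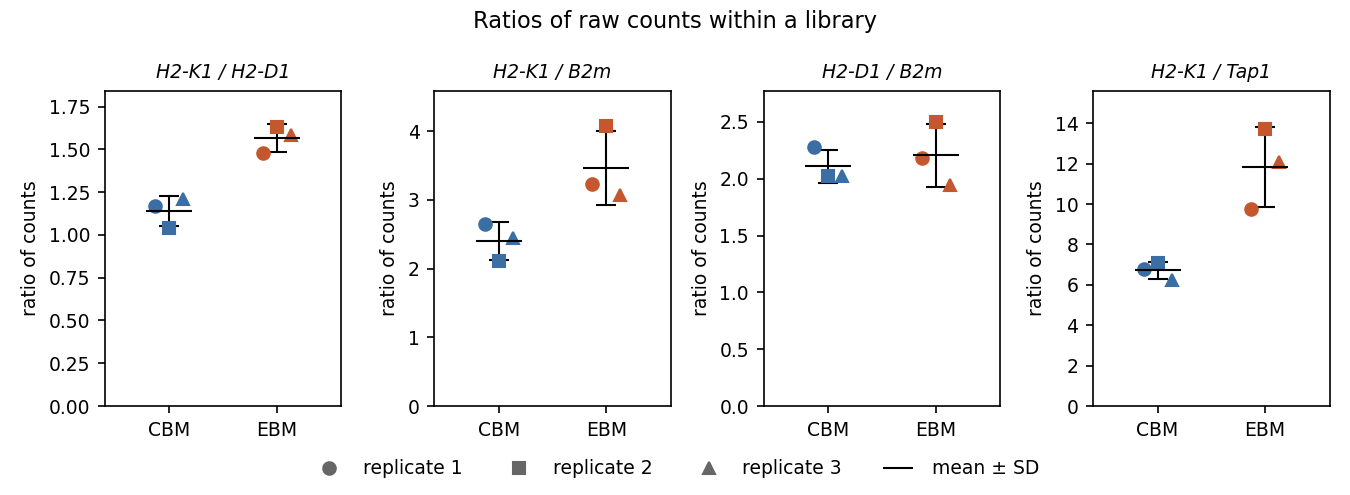
Ratio of raw counts of 2 genes within each library (vertical axes, from 0), for 3 CBM and 3 EBM libraries (marker shape gives the replicate), with the mean and SD as black bars. H2-K1 over H2-D1 runs from 1.04 to 1.21 in CBM and from 1.48 to 1.63 in EBM, and H2-D1 over B2m overlaps between the regions.

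Among the other class I heavy chain and class I-like genes, 10 of the 26 found in the table passed the filter on low counts. In edgeR's test 0 passed the adjusted threshold. Without adjustment, p was under 0.05 for 2 that were higher in EBM and for 1 that was lower (4.01% and 3.90% of all genes tested). All EBM libraries lay above all CBM libraries for 4 and below for 1 (7.47% and 7.65% of all genes tested). The median log2 fold change of the 10 was 0.19. H2-K2, annotated as a pseudogene beside H2-K1, was at 44.2, 44.0 and 33.5 CPM in CBM and at 67.6, 92.5 and 103 CPM in EBM, a log2 fold change of 1.11 (SE 0.19, adjusted p = 0.175 in edgeR's test), and DESeq2 called it. Its count was between 0.0668 and 0.0899 of that of H2-K1. No 150-base stretch was shared exactly between the transcripts of H2-K2 and H2-K1, and near matches were not tested. H2-Q4 had a log2 fold change of 0.35 (unadjusted p = 0.0262 in edgeR's test), and Mr1, which presents vitamin metabolites to MAIT cells, had -0.39 (unadjusted p = 0.0451 in the same test), but its p was under 0.05 in 8 of the 15 other fits and that of H2-Q4 in 11. H2-T22 was at 0.14 and Hfe, the class I-like regulator of iron uptake, was at -0.35, and neither passed an unadjusted p of 0.05. When the counts of the 22 listed class I heavy chain genes were added into 1 feature, EBM was 0.60 higher on the log2 scale (edgeR's adjusted p = 0.227). This sum includes H2-K2 and genes with 0 counts in all libraries. In CBM replicate 1, H2-K1 and H2-D1 gave 10705 and 9177 of its counts, against 4024 for H2-T23, the next highest. The sum therefore mostly restates H2-K1 and H2-D1 and does not show a rise across the family.

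Of the 25 genes of class I peptide processing and loading, all were tested and 0 passed the adjusted threshold in edgeR's test. At an unadjusted p under 0.05, 2 were higher and none lower, against 4.01% and 3.90% of all genes tested. The sign was positive in 23 of the 25, against 6726 of the 13352 genes tested, with a median log2 fold change of 0.12. Tapbpl, which encodes the peptide editor TAPBPR, was at 20.03, 15.0 and 17.5 CPM in CBM and at 29.1, 27.4 and 22.8 CPM in EBM (log2 fold change 0.60, unadjusted p = 0.00772 and adjusted p = 0.399 in edgeR's test). Hspa5, the chaperone BiP of the endoplasmic reticulum, had a log2 fold change of 0.97 (unadjusted p = 0.0239 in edgeR's test), with its regions overlapping and its highest library, EBM replicate 3, at 4576 CPM. Without that library its log2 fold change was 0.51, and its unadjusted p in edgeR's test was 0.058 without CBM replicate 1 and 0.070 without CBM replicate 3. Psme1, a subunit of the proteasome activator PA28, was at 0.22 and Calr, which encodes calreticulin, was at 0.50, or 0.28 without EBM replicate 3. Lnpep (-0.19) and Uggt1 (-0.08) were the 2 genes with a negative sign. The immunoproteasome subunits Psmb8, Psmb9 and Psmb10 had log2 fold changes of 0.20, 0.13 and 0.16, and each overlapped between the regions. For Psmb8 the lowest library was CBM replicate 2, at 42.9 CPM against 76.3 CPM or more in the other CBM libraries.

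Of the 24 regulators of class I genes, 0 passed the adjusted threshold in edgeR's test, 5 that were higher and none that was lower had p under 0.05 without adjustment (4.01% and 3.90% of all genes tested). All EBM libraries lay above all CBM libraries for 6 and below for none (7.47% and 7.65% of all genes tested). The 3 genes of smallest p were subunits of NF-kB. Relb had a log2 fold change of 1.83 (SE 0.28), Nfkb2 of 1.43 (SE 0.16) and Rela of 0.75 (SE 0.095), with adjusted p-values of 0.157, 0.115 and 0.115 in edgeR's test, and DESeq2 called each of them. Nfkb2 was at 104, 102 and 74.5 CPM in CBM and at 274, 264 and 217 CPM in EBM. Irf1, an interferon regulatory factor, was at 16.6, 9.16 and 7.69 CPM in CBM and at 31.5, 26.8 and 27.6 CPM in EBM, a log2 fold change of 1.36 (adjusted p = 0.275 in edgeR's test), and DESeq2 called it (adjusted p = 0.00107). Nfya, a subunit of NF-Y, had a log2 fold change of 0.37 (unadjusted p = 0.00478 in edgeR's test). Nfkb1 was at 0.26 and Irf7 at 0.57, with wide errors (SE 0.32 and 0.69), and Nfkb1 ran from 0.045 without EBM replicate 1 to 0.52 without CBM replicate 1. Rfxank (-0.23), Suz12 (-0.13) and Atf1 (-0.07) had the smallest p among the regulators of negative sign, and none of them passed an unadjusted p of 0.05.

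Of the 23 genes of interferon gamma signalling and its early targets, 18 were tested. In edgeR's test 0 passed the adjusted threshold. Without adjustment, p was under 0.05 for 4 that were higher and for 1 that was lower (4.01% and 3.90% of all genes tested). The signs were 10 positive and 8 negative, against 6726 and 6626 over all genes tested. Gbp5 and Gbp3, guanylate-binding proteins induced by interferon, had log2 fold changes of 1.24 (SE 0.16) and 1.28 (SE 0.27), and DESeq2 called both. Gbp5 was at 25.5, 28.2 and 24.7 CPM in CBM and at 48.6, 66.3 and 70.4 CPM in EBM. Gbp7, a member of the same family, was lower in EBM, with a log2 fold change of -0.30 (unadjusted p = 0.0196 in edgeR's test, under 0.05 in 12 of the 15 other fits). Irgm1 was at -0.02, Irgm2 at -0.74 and Socs1, the feedback inhibitor of the pathway, was at -0.57, without passing an unadjusted p of 0.05. Ptpn2, a phosphatase that restrains the pathway, was at 0.42 (unadjusted p = 0.0121 and adjusted p = 0.440 in edgeR's test), without overlap between the regions. The cytokine gene Ifng had at most 3 counts in any library.

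**Figure D4:**
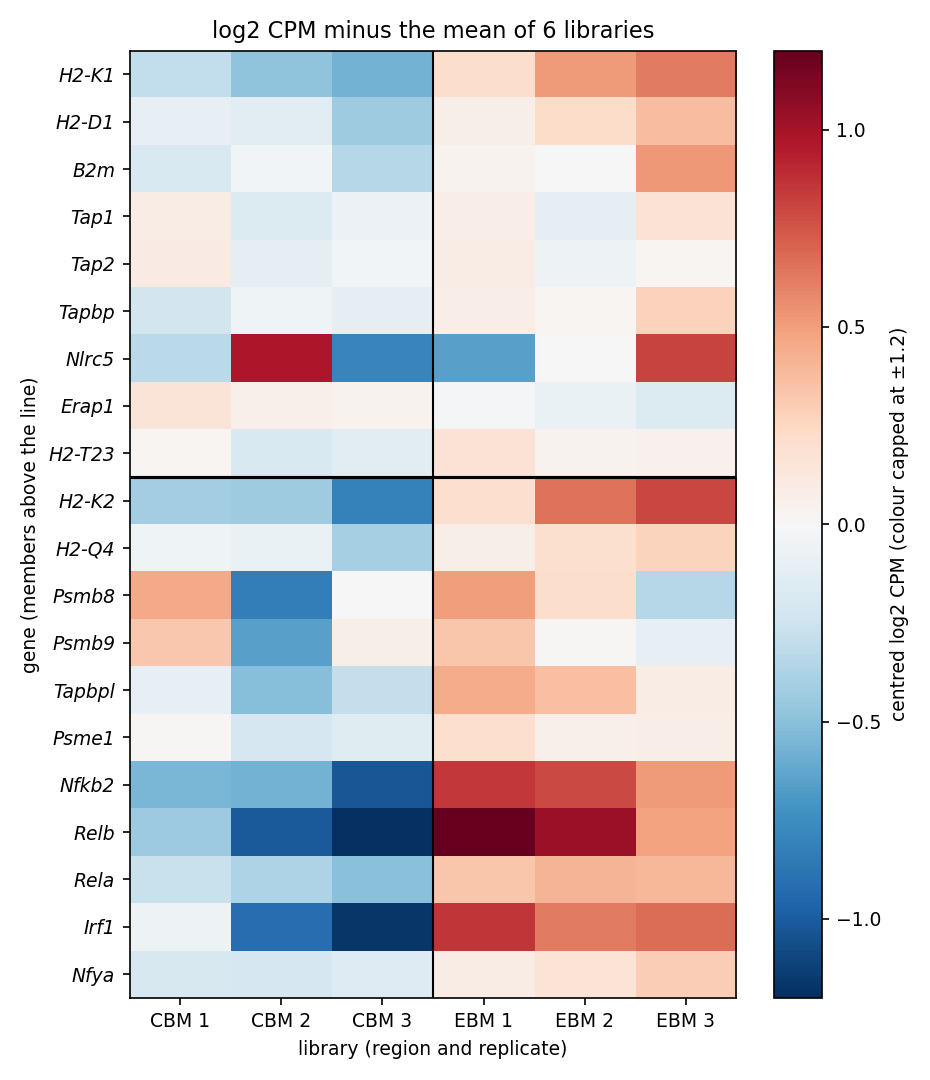
Log2 CPM minus the mean of the 6 libraries (colour, capped at 1.2 in either direction) for the 9 genes above the line and for 11 genes of the lists below it, with 1 column per library. H2-K1, H2-D1, H2-K2, Nfkb2 and Rela are below their mean in all CBM libraries and above it in all EBM libraries, while Nlrc5 is highest in CBM replicate 2 and EBM replicate 3.

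Over the 6 libraries, of which 3 share each region, the profiles of H2-K1 and H2-D1 had a Pearson r of 0.94, those of B2m and Tapbp 0.92, and those of Tap1 and Tap2 0.85. Erap1 went opposite to Tapbp (r = -0.95). The genes most like the mean profile of H2-K1, H2-D1 and B2m were H3f3b (r = 0.996), Pheta1 (0.992), Derl2 (0.991), Cd74 (0.987) and Chst15 (0.987). These correlations over 6 libraries are descriptions. Cd74, the invariant chain of MHC class II, was at 2.16, 2.42 and 1.09 CPM in CBM and at 5.41, 7.85 and 10.4 CPM in EBM, and the class II regulator Ciita had 9 and 8 counts in EBM replicates 2 and 3 and at most 1 in the other libraries.

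Cells of other types could hold class I transcripts too, so their markers were read in the same libraries. T cell markers summed to between 2.39 and 12.6 CPM in CBM and between 3.81 and 12.7 CPM in EBM. Nearly all of this was Lck, while Cd3d, Cd3e, Cd3g and Cd4 were at most 0.211 CPM and Cd8a at most 0.474 CPM. NK cell markers summed to at most 0.579 CPM and osteoblast or stromal markers to at most 1.39 CPM. Macrophage markers summed to between 1.25 and 3.37 CPM in CBM and between 1.54 and 3.79 CPM in EBM, and endothelial markers to at most 2.16 CPM. B cell markers ran from 7.95 to 14.5 CPM in CBM and from 6.81 to 12.3 CPM in EBM, mostly from Cd79b, and plasma cell markers from 0.171 to 10.5 CPM and from 2.25 to 7.07 CPM. Dendritic cell markers were highest in EBM replicate 3, at 1.41 CPM, against at most 0.390 CPM in the other libraries. Ms4a1, Tnfrsf17, Cd209a and Emcn were at 0 in all 6 libraries. Erythroid markers summed to between 1862 and 5101 CPM in CBM and between 2284 and 3397 CPM in EBM. Neutrophil markers were highest in CBM replicate 2, at 215 CPM, and at most 7.68 CPM in the other CBM libraries, with between 33.3 and 154 CPM in EBM. Each list overlapped between the regions when all 6 libraries were read. The overlap rested on CBM replicate 2 for the neutrophil, plasma cell, NK cell, osteoblast or stromal and erythroid lists. Without that library, these sums were lower in CBM than in any EBM library. Plasma cell markers were then at 0.171 and 0.447 CPM in CBM. The other lists still overlapped, and fewer libraries make such separation easier. The part of these cells in the class I differences was not tested.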

How the data were processed

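RNA was measured by sequencing of 3 CBM and 3 EBM libraries, made with a directional kit. The labels call the library type mRNA, while the study's methods name rRNA-depleted RNA. The authors deposited raw read counts per gene, without normalization. The submitters' processing notes name HISAT2 2.0.5 and mm10, with no role given, and the counting tool, its annotation and its strand setting are not given in the sources used here. Of the identifiers, 54495 are in GENCODE M21 and 53585 have the same coordinates there, so coordinates are on GRCm38.

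Genes were kept by filterByExpr (13352 of 54532), scaled by TMM (factors 0.948 to 1.037) and tested with the quasi-likelihood F-test of edgeR 4.0.16 in R 4.3.3, with Benjamini-Hochberg adjustment over all genes tested at 0.05. CPM are counts scaled to the TMM library size, and log2 CPM uses a prior count of 2. For single ratios the 20 relabellings of the 6 libraries were enumerated. Alternatives were DESeq2 1.42.0, limma-voom (limma 3.58.1), RLE and upper-quartile factors, other filters, a replicate block, thinning to the smallest library and leaving out libraries. Leaving out CBM replicate 2 with EBM replicate 3, and summing H2-K1 with H2-K2, were added after seeing the data. The edgeR, DESeq2 and voom fits were tested on simulated data. Depth limits precision as the floor of 3 counts states.

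The 9 genes and the lists were chosen with earlier results of these data known. Named genes are the 9, in each list the 3 genes of smallest p in each direction, and the 5 genes most like the mean of H2-K1, H2-D1 and B2m. Calr, Psmb8, Psmb9, Psmb10, Irf7, Irgm1, Nfkb1, Nfya, Ptpn2, Ifng, Ciita and single marker genes were named after their values were seen. Nrdc was matched as Nrd1, and H2-T9 was not matched. The result of 1 further gene is not reported here.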

Additional observations from a re-analysis of the deposited data

How the results depend on the processing

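Each of the 9 genes was refitted under 15 other settings. H2-K1, H2-D1, B2m, Tapbp and H2-T23 had a positive and Erap1 a negative sign in all 15. No gene passed the adjusted threshold in edgeR's main test, against 176 with DESeq2, 40 without a filter on low counts and 13 without CBM replicate 2 and EBM replicate 3. Among the 9 genes H2-K1 passed with DESeq2 and without the filter (1 each), and the cause was not tested. At an unadjusted p under 0.05, leaving out 1 library gave 2 to 4 genes of the 9 against 3. The count of genes without overlap was 6, and it was 5 with upper-quartile factors and with library totals alone. With library totals the gene that overlapped was H2-T23, with 4024 of 17078883 counts in CBM replicate 1 against 3635 of 16436526 in EBM replicate 3. The shares of all genes under these other settings are not given here, and those of the main fit do not stand for them.

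With upper-quartile factors the log2 fold change was -0.000924 for Tap2 and -0.017 for Nlrc5. Without CBM replicate 2 and EBM replicate 3 it was -0.032 for Tap1, -0.021 for Tap2, -0.017 for Psmb9 and -0.022 for Psmb10. Leaving out 1 library at a time moved it from 0.017 to 0.17 for Tap1, -0.015 to 0.097 for Tap2, -0.49 to 0.77 for Nlrc5, -1.02 to 0.0059 for Socs1, -0.079 to 0.52 for Psmb8, -0.10 to 0.34 for Psmb9, -0.025 to 0.28 for Psmb10, -0.73 to 0.32 for Irgm1, 0.045 to 0.52 for Nfkb1, 0.51 to 1.24 for Hspa5 and -0.42 to 1.34 for Irf7.

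The replicate numbers were not shown to pair the libraries. Same-numbered libraries deviated together with r of 0.68, -0.20 and 0.20, and of the CBM libraries 1 and 3 correlated best with their own number. From the EBM side, however, EBM replicate 2 correlated best with CBM replicate 1 (0.31) and EBM replicate 3 with CBM replicate 2 (0.51). With the replicate block 0 genes passed the adjusted threshold, and H2-K1, H2-D1 and Tapbp remained the genes of the 9 at an unadjusted p under 0.05. Adding H2-D1 to H2-K1 gave 0.70, and adding H2-K2 to H2-K1 gave 0.92, neither past the threshold (adjusted p = 0.205 and 0.160, edgeR). With 3 libraries per region and few degrees of freedom, small differences such as that of Tap2 are given only within their intervals.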
